A study of Mus musculus with 6 samples.

Results

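The BCL2 family genes Bcl2, Bcl2l1, Mcl1, Bak1, Bcl2l11, Bmf, Bad and Bid were followed in natural regulatory T (nTreg) cells, the CD4+ T cells that restrain other immune cells. The 8 genes were taken by symbol from a table of 24982 symbols, and all 8 were among the 11772 genes with enough counts to be tested. Bcl2l11, which encodes the death activator BIM, averaged 32.5 ± 10.4 CPM (counts scaled to library size) in KO libraries and 15.9 ± 3.34 CPM in WT libraries (SD, n = 3 each). Bcl2, the survival gene whose product holds BIM in check, averaged 121 ± 42.0 CPM in KO libraries and 242.7 ± 132 CPM in WT libraries, a log2 fold change of -1.005 that was -0.47 without the library labelled WT replicate 3. Neither difference passed the threshold over all genes, and 0 of the 8 genes did, where 0.0170% of all genes tested did. Bcl2l11 was the only 1 of the 8 whose KO and WT libraries did not overlap in CPM, and 15.7% of all genes tested also had no overlap.

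The KO mice carried Srsf1-flox/flox dLck.Cre, in which Cre under the distal Lck promoter deletes the splicing factor gene Srsf1 in T cells. The WT mice were labelled by genotype only, and whether they carried Cre or the floxed allele is not given in the sources used here. All mice were of the strain B6.129 and 8 to 10 weeks old, and each group had 3 libraries from spleen. Cells of the phenotype CD4+CD25+CD127lo were sorted and kept for 72 h with recombinant interleukin-2 at 10 ng/ml and antibodies to CD3 and CD28 at 2 µg/ml each, so every library comes from stimulated, interleukin-2-supplied cells. The series gives 3 mice per genotype, and the 6 libraries are taken to be separate animals.

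Proteins of the BCL2 family decide whether the outer membrane of the mitochondrion is opened, the step that releases cytochrome c and starts the caspases. Survival members (BCL2, BCL-XL from Bcl2l1, MCL1) bind and hold the effectors BAK and BAX and the BH3-only proteins, a class that senses stress and shares with the rest of the family little more than the short BH3 helix. BIM, BMF, BAD and BID are BH3-only proteins. In regulatory T cells BIM is a known driver of death when interleukin-2 runs short, and MCL1 is a known requirement for their survival. Bcl2l1, Mcl1 and Bcl2l11 are all known to be spliced into forms of different or opposite activity. The counts are per gene and do not separate these forms.

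The BH3 stretch is what the survival and death proteins meet through, so its coding sequence is shown for all 8 genes, read from GENCODE transcripts on GRCm38. Each run is 21 bases of the sense strand, 5′ to 3′. Capitals mark the codons for leucine, for a small residue (glycine, serine or alanine) and for aspartate, which a search placed at a fixed spacing, and lower case marks the codons between and after them.
Bcl2: CTCcgccgggctGGGGATgac
Bcl2l1: CTGagagaggcaGGCGATgag
Mcl1: CTGcggcgcgtgGGCGACggc
Bak1: CTTgctctcatcGGAGATgat
Bcl2l11: CTGcggcggatcGGAGACgag
Bmf: CTTcagtgtattGCAGACcag
Bad: CTCcgaaggatgAGCGATgag
Bid: CTCgcccaaataGGCGATgag

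The Bcl2l11 stretch lies in exon 3 of transcript Bcl2l11-205 at chr2:128147150-128147170 on the plus strand, and the Bcl2 stretch in exon 1 of Bcl2-201 at chr1:106712581-106712601 on the minus strand. The search asked for a leucine codon, any 3 codons, a glycine, serine or alanine codon and an aspartate codon, in frame and on the coding strand only, and it found 1 match in each of the 8 coding sequences. The same search matched 34.0% of 21559 protein-coding genes, so a match alone does not mark the family. Against Bcl2l11, the stretch of Mcl1 had 15 of 21 bases in common, those of Bmf and Bad 14, those of Bcl2 and Bak1 13, and those of Bcl2l1 and Bid 12.

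The 6 libraries held 10183626 to 27562046 counts, and each KO library was shallower than each WT library. Srsf1 itself stood at 438, 812 and 787 CPM in KO replicates 1, 2 and 3 and at 1214, 1230 and 755.5 CPM in the libraries labelled WT replicates 1, 2 and 3, so the library labelled WT replicate 3 lay among the KO values. Its log2 fold change was -0.65 (SE 0.32, edgeR adjusted p = 0.682), and it was -0.42 without KO replicate 1 and -0.33 with GC and transcript length adjusted for. The nTreg label was set against Foxp3 and Il2ra, taken as markers of these cells. Foxp3 ran from 357 to 464 CPM in KO and from 104 to 160 CPM in WT libraries. Il2ra ran from 3300 to 6880 CPM in KO and from 4073 to 6566 CPM in WT libraries. The CD8 gene Cd8a stood above Foxp3 in the libraries labelled WT replicates 2 (176 against 121 CPM) and 3 (157 against 104 CPM). Cd8a stood below Foxp3 in the other libraries. The share of Treg cells in each library was not tested. KO replicate 1 stood apart, with a correlation across genes of at most 0.930 with any other library, against at least 0.977 as the best match of each of the other libraries. It also had the highest mismatch rate, 0.52% of bases against 0.32% to 0.43%. Its deviation moved with base composition: with genes put in 5 equal bins of transcript GC content, it stood at a median of 1.14 above the mean of the other KO libraries on the log2 CPM scale in the highest bin, and at -1.10 in the lowest.

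Counts were tested for KO against WT with edgeR's quasi-likelihood test over all 11772 genes, with Benjamini-Hochberg adjusted p-values and a threshold of 0.05. The test called 0 of the 8 members in either direction, where it called 0.0170% of all genes tested. At an unadjusted p under 0.05 stood 2 members, Bcl2l11 and Bcl2, against 7.51% of all genes. Groups without overlap were found for 1 of 8 members, against 15.7% of all genes (7.48% higher and 8.18% lower in KO). DESeq2 likewise called 0 of 8, against 1.10% of all genes. Of the 8 log2 fold changes 5 were above 0, with a median of 0.24, against 51.6% above 0 and a median of 0.02 over all genes tested. The family was not tested as a group.

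**Figure D1:**
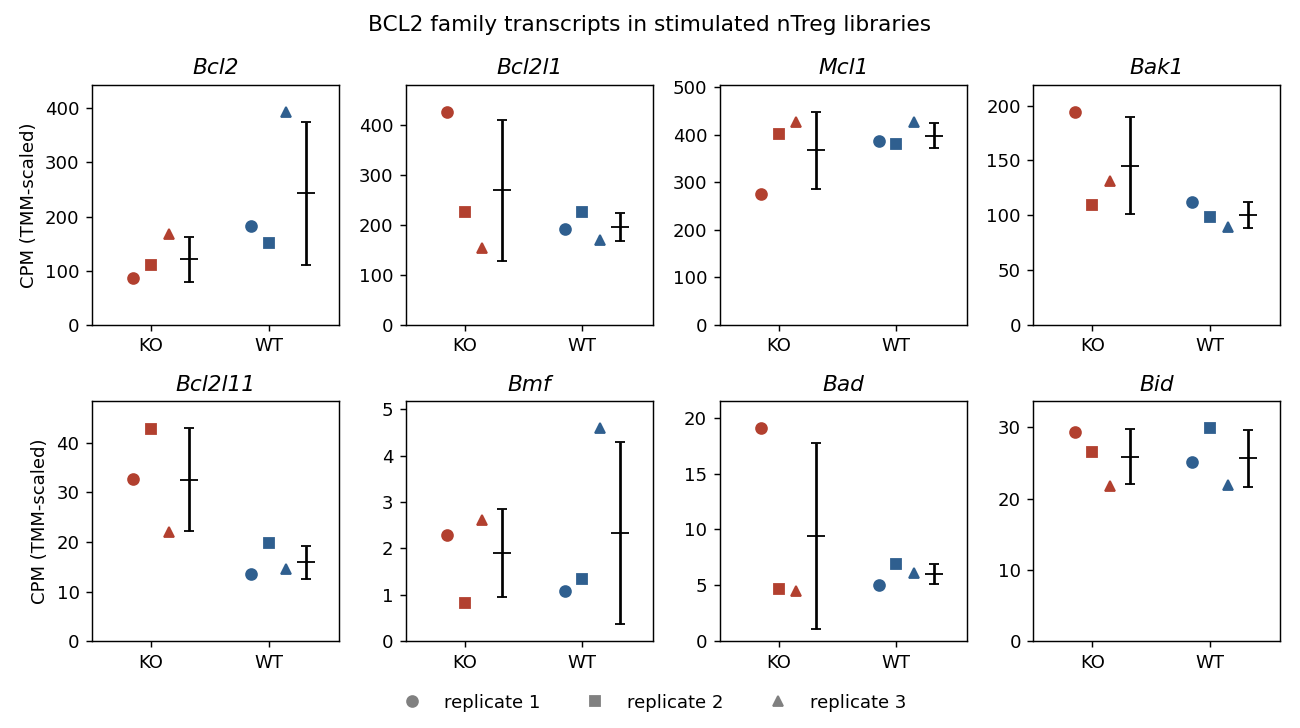
CPM of each BCL2 family gene in KO (red) and WT (blue) libraries, with 1 marker shape per replicate number and the mean ± SD of 3 libraries in black beside the points. Bcl2l11 is the only panel in which all KO points, 22.1 to 42.8 CPM, lie above all WT points, 13.5 to 19.7 CPM.

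Bcl2, named for the B cell lymphoma in which it was found, is the survival gene with the largest difference. It was measured at 85.9, 109.5 and 167.5 CPM in KO replicates 1, 2 and 3 and at 182.5, 151.5 and 394 CPM in the libraries labelled WT replicates 1, 2 and 3. The library labelled WT replicate 3 was the highest by a wide margin, and KO replicate 3 lay above WT replicate 2, so that the groups overlapped. The log2 fold change was -1.005 (SE 0.41, 95% interval -1.94 to -0.07, edgeR adjusted p = 0.651), and the exact two-sided permutation test over the 6 libraries gave p = 0.2, where 0.1 is the smallest p it allows. Without the library labelled WT replicate 3, the log2 fold change was -0.47, and without that library and KO replicate 1 it was -0.25. Adjustment for GC and transcript length left it at -0.96.

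Bcl2l1, the gene of BCL-XL, stood at 426, 226 and 153 CPM in KO libraries and at 192, 226 and 169 CPM in WT libraries. KO replicate 1 was the highest of the 6 and KO replicate 3 the lowest, with WT libraries between them. The log2 fold change of 0.46 (SE 0.37, 95% interval -0.38 to 1.30, edgeR adjusted p = 0.757) was -0.04 without KO replicate 1 and 0.13 after adjustment for GC and transcript length. The transcript is rich in GC (55.9%), in the bin where KO replicate 1 stood highest.

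Mcl1, a short-lived survival protein that cells must keep making, was even across the libraries. It was measured at 275.5, 401 and 427 CPM in KO libraries and at 386, 381 and 428 CPM in WT libraries. KO replicate 1 was the lowest, and the other 5 libraries lay within 381 to 428 CPM. Its log2 fold change was -0.12 (SE 0.25), with a 95% interval from -0.67 to 0.44, and without KO replicate 1 it was 0.05.

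Bak1, an effector that forms pores in the mitochondrial membrane, stood at 194.5, 109 and 131 CPM in KO libraries and at 112, 98.7 and 88.8 CPM in WT libraries. KO replicate 2 lay below WT replicate 1, and the other KO libraries lay above all WT libraries. For Bak1 the log2 fold change was 0.54 (SE 0.27, 95% interval -0.07 to 1.15, edgeR adjusted p = 0.682). It was 0.27 without KO replicate 1 and 0.24 after adjustment for GC and transcript length, and it stayed above 0 in all 21 alternatives.

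Bcl2l11 was measured at 716, 567 and 220 counts in KO libraries and at 299, 503 and 404 counts in WT libraries. Scaled to library size these were 32.7, 42.8 and 22.1 CPM in KO replicates 1, 2 and 3 and 13.5, 19.7 and 14.5 CPM in the libraries labelled WT replicates 1, 2 and 3. Every KO library lay above every WT library, with the narrowest gap between KO replicate 3 and WT replicate 2. The log2 fold change was 1.03 (SE 0.32, 95% interval 0.30 to 1.76, edgeR adjusted p = 0.529), and the exact two-sided permutation test gave p = 0.1, the smallest it allows. In the FPKM table, which divides by transcript length as well as depth, KO replicate 3 at 3.37 FPKM lay just below WT replicate 2 at 3.44 FPKM, so the groups overlapped on that scale.

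The size of the Bcl2l11 difference moved little in the fits without KO replicate 1, without the library labelled WT replicate 3 or without both. It was 1.03 without KO replicate 1, 0.96 without the library labelled WT replicate 3, 0.99 without both and 1.05 after adjustment for GC and transcript length. Over the 6 fits without 1 library it ran from 0.78 without KO replicate 2 to 1.23 without KO replicate 3. In these libraries Bcl2l11 lay furthest from the rest of its group, at 0.66 and -0.75 on the log2 CPM scale. It lay at 0.09 in KO replicate 1 and -0.17 in the library labelled WT replicate 3. In limma on log2(FPKM + 1) the Bcl2l11 difference was 0.76. With 48.0% GC, the Bcl2l11 transcript lies at the upper edge of the bin second from the lowest (44.1% to 48.1%). All genes of KO replicate 1 stood at a median of -0.49 against the other KO libraries in that bin. The median was 0.03 in the next higher bin, and Bcl2l11 stood at 0.09. The smallest adjusted p among the alternatives was 0.140, in the DESeq2 Wald test.

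Bmf, a BH3-only protein tied to the cytoskeleton, had the lowest counts of the 8 genes. They were 50, 11 and 26 counts in KO libraries and 24, 34 and 128 counts in WT libraries, or 0.830 to 2.61 CPM in KO and 1.08 to 4.59 CPM in WT libraries. The library labelled WT replicate 3 was again the highest, as it was for Bcl2. The log2 fold change of -0.30 (SE 0.67) stood at 0.64 without that library.

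Bad, whose product is held in the cytosol by phosphorylation when growth factors are present, depended on a single library. It stood at 19.1, 4.68 and 4.51 CPM in KO libraries and at 5.06, 6.90 and 6.10 CPM in WT libraries. KO replicate 1 was the highest of all, and KO replicates 2 and 3 were the lowest. The log2 fold change of 0.66 (SE 0.57) was -0.39 without KO replicate 1. With 57.1% GC, Bad lies in the highest GC bin, and in KO replicate 1 it stood 1.94 above the mean of the other KO libraries on the log2 CPM scale, against a median of 1.14 for genes of that bin. After adjustment for GC and transcript length the log2 fold change was 0.13.

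Bid, the protein that caspase-8 cuts to pass a death receptor signal on to mitochondria, was the most even of the 4 BH3-only genes. Its levels were 29.35, 26.6 and 21.8 CPM in KO libraries and 25.2, 29.9 and 21.85 CPM in WT libraries. The groups covered the same range. For Bid the log2 fold change was 0.02 (SE 0.26), with a 95% interval from -0.57 to 0.60.

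**Figure D2:**
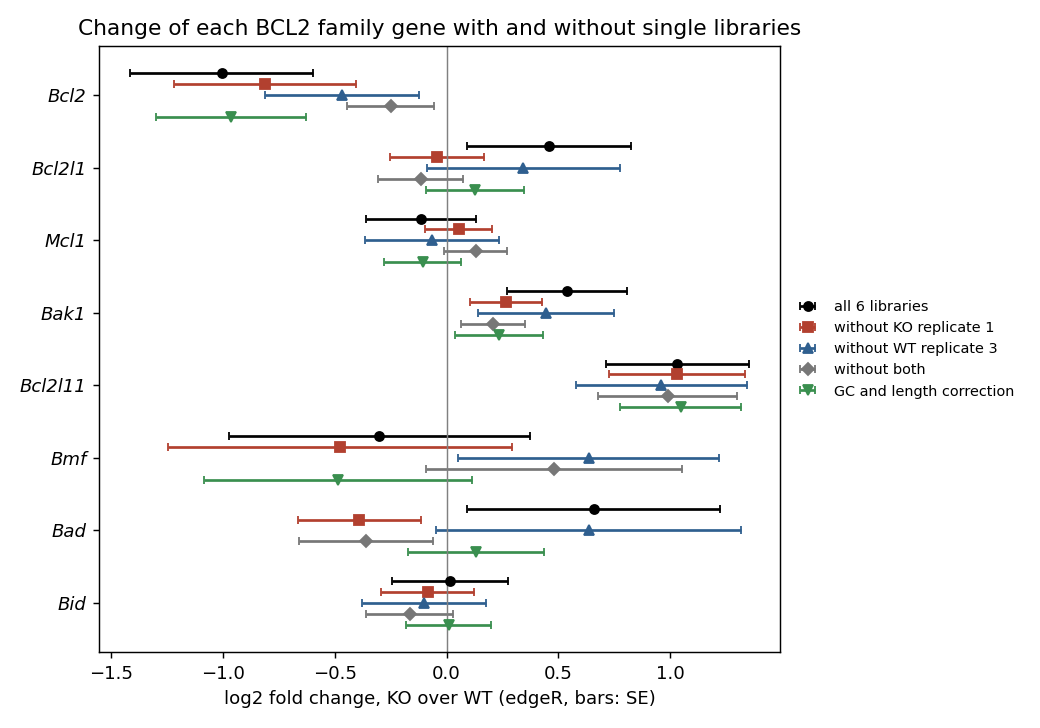
Log2 fold change of each gene, KO over WT, with its SE, from edgeR on all 6 libraries (black), without KO replicate 1 (red), without the library labelled WT replicate 3 (blue), without both (grey) and after adjustment for GC and transcript length (green). Bcl2l11 stays between 0.96 and 1.05 in these 5 fits, while Bad, Bcl2l1, Mcl1, Bmf and Bid cross 0 and Bcl2 shrinks to -0.25 without both libraries. The fits without KO replicate 2 (0.78 for Bcl2l11) and without KO replicate 3 (1.23) are not drawn.

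**Figure D3:**
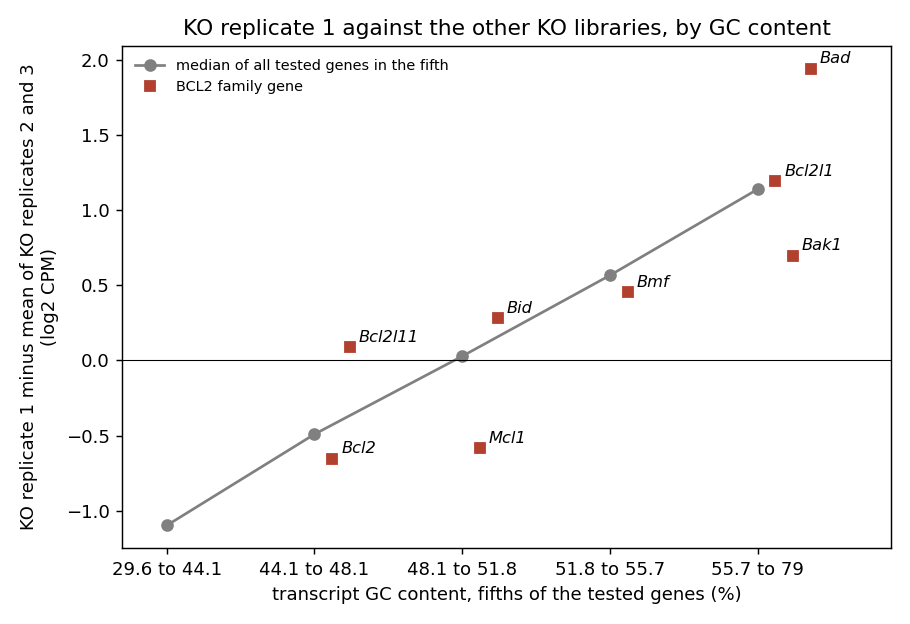
KO replicate 1 minus the mean of KO replicates 2 and 3 on the log2 CPM scale, for the 8 genes (red squares) and as medians of all tested genes in 5 equal bins of transcript GC content (grey line). The line runs from -1.10 in the lowest bin to 1.14 in the highest, where Bad, Bcl2l1 and Bak1 lie.

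Exons of 4 members share bases with a gene on the opposite strand in the GENCODE annotation: Bak1 with Ggnbp1 over 614 bases, Bad with Gpr137 over 524, Bid with Bcl2l13 over 628 and Bcl2 with the antisense transcript D630008O14Rik over 558. The kit keeps strand, but whether counting used it is not stated in the labels or headers, and reads of these pairs cannot be told apart. Ggnbp1 had 2 to 14 counts in KO and 4 to 7 in WT libraries, far fewer than Bak1. Gpr137 had 189, 32 and 31 counts in KO and 65, 81 and 160 in WT libraries, of the same order as Bad. Bcl2l13 had 2085, 962 and 685 counts in KO and 1556, 2099 and 2004 in WT libraries, more than Bid in every library (642, 352 and 217 in KO, and 557, 762 and 609 in WT). No such overlap was found for the other 4 members.

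Per length, in FPKM, Mcl1 was the most abundant of the 8 in WT libraries at 81.7, 86.1 and 99.1 FPKM. Below it came Bcl2l1 at 57.4, 74.0 and 56.1 FPKM and Bak1 at 43.0, 39.7 and 37.1 FPKM, and these 3 ranges did not overlap. Bcl2, at 18.6, 16.4 and 43.4 FPKM in WT libraries, overlapped with Bak1 through the library labelled WT replicate 3. Then followed Bid (mean 10.9 FPKM), Bad (5.41), Bcl2l11 (2.75) and Bmf (0.424), each without overlap with its neighbour in the order.

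In KO libraries the order at the top differed by library. KO replicate 1 had 165 FPKM of Bcl2l1, 89.4 of Bak1 and 69.6 of Mcl1, while KO replicates 2 and 3 had Mcl1 first at 87.65 and 91.7 FPKM. Bcl2 (11.65, 11.5 and 17.6 FPKM) and Bid (14.2, 11.2 and 9.14 FPKM) overlapped in KO libraries, where they did not in WT libraries. Bcl2l11 (6.12, 6.93 and 3.37 FPKM) overlapped with Bad (19.8, 3.8 and 3.88 FPKM). The mean of Bcl2 was 13.6 ± 3.45 FPKM in KO and 26.2 ± 15.02 FPKM in WT libraries (SD, n = 3 each), and that of Bcl2l11 5.47 ± 1.87 FPKM in KO and 2.75 ± 0.634 FPKM in WT libraries.

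As a share of the FPKM summed over Bcl2, Bcl2l1 and Mcl1, Bcl2 made up 4.7%, 6.8% and 11.3% in KO replicates 1, 2 and 3 and 11.8%, 9.3% and 21.9% in WT libraries. KO replicate 3 lay above WT replicate 2. Mcl1 made up 28.3%, 51.4% and 58.8% in KO libraries and 51.8%, 48.8% and 49.9% in WT libraries. The sum itself was 246.2, 170.5 and 155.9 FPKM in KO libraries and 157.7, 176.5 and 198.7 FPKM in WT libraries. Only KO replicate 1 exceeded the WT range of the sum, and KO replicate 3 lay just under it.

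Ratios within a library do not depend on how libraries are scaled to each other, and are given here without a test. The log2 ratio of Bcl2 to Bcl2l11 in FPKM was 0.93, 0.73 and 2.38 in KO replicates 1, 2 and 3 and 3.08, 2.25 and 4.07 in WT libraries. KO replicate 3 stood just above WT replicate 2, and the other KO libraries stood below all WT libraries. The mean difference, KO minus WT, was -1.78, and it was -1.11 without KO replicate 1 plus the library labelled WT replicate 3. The log2 ratio of Mcl1 to Bcl2l11 was 3.51, 3.66 and 4.77 in KO and 5.21, 4.64 and 5.26 in WT libraries, with the same pair of libraries overlapping and a mean difference of -1.06. For Bcl2l1 to Bcl2l11 it was 4.75, 3.36 and 3.79 in KO and 4.71, 4.43 and 4.43 in WT libraries. Here KO replicate 1 was the highest of all 6, KO replicates 2 and 3 lay below all WT libraries, and the mean difference was -0.55. Bcl2l1 lies in the highest GC bin and Bcl2l11 in the bin second from the lowest. The part of base composition in these ratios was not tested.

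**Figure D4:**
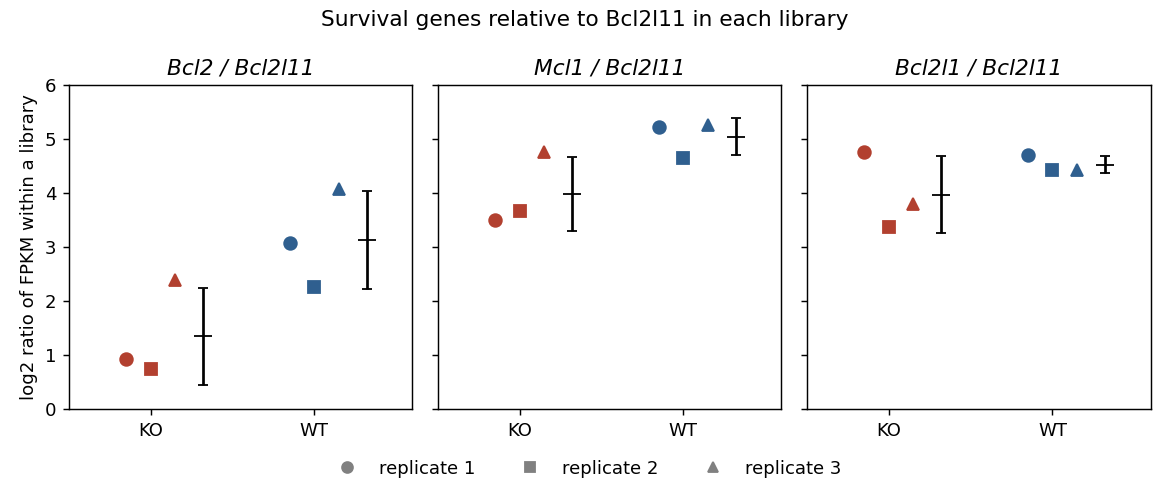
Log2 ratio of Bcl2, Mcl1 and Bcl2l1 to Bcl2l11 in FPKM within each KO (red) and WT (blue) library, with the mean ± SD of 3 libraries in black. For Bcl2 and Mcl1 the KO points lie lower but KO replicate 3 reaches WT replicate 2. For Bcl2l1, KO replicate 1 tops the panel at 4.75, and KO replicates 2 and 3 lie below all WT points.

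The marker sums of CD4 T cells, CD8 T cells, NK cells and myeloid cells did not overlap between KO and WT libraries. Those of CD8 T cells were lower in KO, and the others were higher. The sums of B cells, Treg cells and resting T cells overlapped. The summed CPM of the CD8 T cell genes Cd8a and Cd8b1 was 38.9 to 60.5 in KO and 193 to 269 in WT libraries. Cd8b1 had a log2 fold change of -2.68 (edgeR adjusted p = 0.0166). Over 5 NK cell genes the sum was 23.5 to 43.4 in KO and 15.1 to 21.7 CPM in WT libraries. Eomes made up most of it, at 19.6 to 37.0 CPM in KO and 12.3 to 19.7 CPM in WT libraries. The groups of Eomes and Klre1 overlapped, while those of Ncr1, Klrb1c and Klrb1b, with lower CPM than Eomes, did not. Over 9 myeloid genes the sum was 10.3 to 15.7 in KO and 1.99 to 5.96 CPM in WT libraries. Of the myeloid genes 7 had at most 10 counts in any library, and Fcer1g and Cd68 made up most of the sum. In the counts every library listed 0 for Csf1r and Lyz2, and also for the ribosomal protein gene Rpl26, so a listed 0 can be a missing value. Lyz2 had 0.034 FPKM in WT replicate 2. Over 6 B cell genes the sum was 1.30 to 6.72 in KO and 2.82 to 4.52 CPM in WT libraries. Over 4 CD4 T cell genes it was 1280 to 1466 in KO and 1046 to 1061 CPM in WT libraries, and over 8 Treg genes 5509 to 8745 in KO and 5463 to 8567 CPM in WT libraries. Il2ra makes up most of the Treg sum. Within that list Foxp3 (log2 fold change 1.68), Ikzf2 (0.91), Ikzf4 (0.58) and Nrp1 (0.91) were higher in each KO library than in each WT library. None of these passed the edgeR threshold, and 7.48% of all genes tested were higher in KO without overlap. Ctla4 (-0.79), Tnfrsf18 (0.30), Tnfrsf4 (0.44) and Il2ra (-0.09) overlapped between groups. Over 6 genes of resting T cells the sum was 523 to 700.1 in KO and 618 to 650.0 CPM in WT libraries. In that list Dapl1 fell, at 3.06, 3.70 and 3.91 CPM in KO and 37.7, 42.0 and 24.4 CPM in WT libraries, a log2 fold change of -3.29 (edgeR adjusted p = 0.0295), while the other 5 genes overlapped between groups. The part of other cells in the BCL2 family values was not tested, and in sorted bulk cells fewer cells of a type and less RNA per cell cannot be told apart.

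By the smallest root-mean-square difference in centred log2 CPM over the 6 libraries, among 9987 genes with a mean of at least 2 CPM over the libraries, the genes most like Bcl2l11 were Cmtm3 (0.168), Mast4 (0.168) and Gbp3 (0.176). These genes were picked for their profile over the same libraries, so their fold changes, p-values and highest libraries follow in large part from the choice and are given as a description. Gbp3, an interferon-induced GTPase, had a log2 fold change of 1.16 (SE 0.28, edgeR adjusted p = 0.371), and DESeq2 gave it an adjusted p of 0.0290. Mast4, a kinase of the microtubule-associated type, stood at 0.84 and Cmtm3 at 1.02. The genes most like Bcl2 were Susd1 (0.104), Ppp3cc (0.113), a catalytic subunit of calcineurin, and Pdk1 (0.125), the kinase that restrains pyruvate dehydrogenase. Each of the 3 was highest in the library labelled WT replicate 3, with 9.90, 254 and 248 CPM, and their log2 fold changes were -1.20, -1.02 and -1.03. Without KO replicate 1 plus that library these were -0.45, -0.24 and -0.41.

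Outside the 8 genes, 78 genes of the same pathway were read from 6 lists, and 74 were tested. The edgeR test called 0 of them in either direction, against 0.0170% of all genes. At an unadjusted p under 0.05 stood 5 (1 higher and 4 lower), against 7.51% of all genes. DESeq2 called 1 of the 74, Trib3, against 1.10% of all genes. Their median log2 fold change was -0.02, against 0.02 over all genes, and groups did not overlap for 7 (2 higher and 5 lower in KO), against 15.7% of all genes. No list had a member past the threshold in edgeR.

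**Figure D5:**
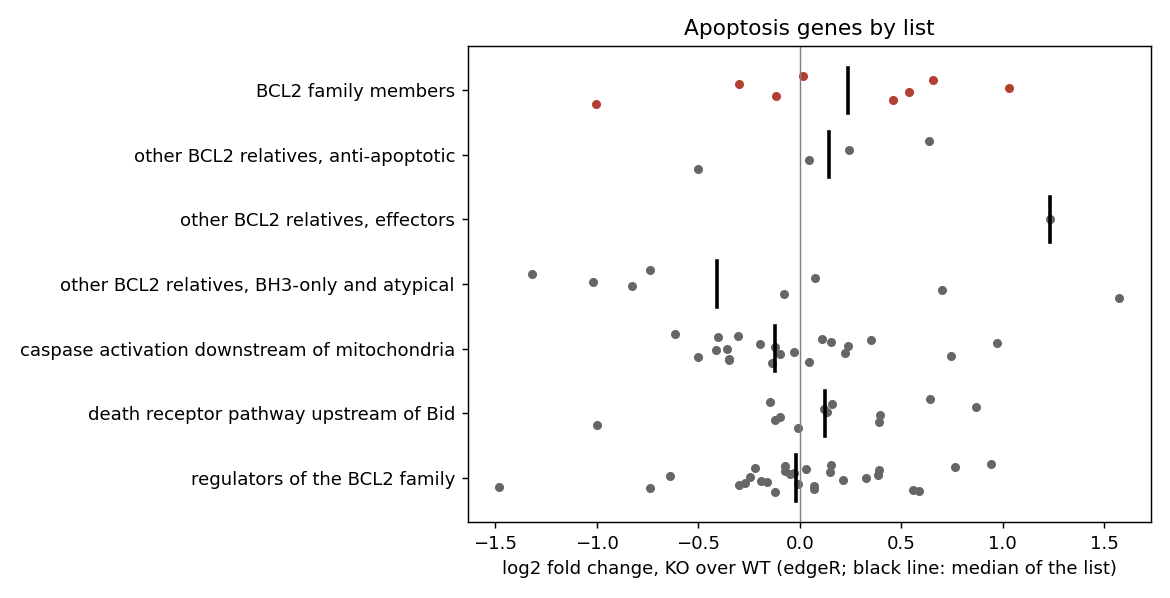
Log2 fold change, KO over WT, of the 8 BCL2 family genes (red) and of the tested genes in 6 lists of the same pathway (grey), with the median of each list as a black line. Medians lie between -0.41 and 0.24 except for the effectors, where Bax is the only tested gene, at 1.24.

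Among the other survival relatives, 4 of 6 were tested. Bcl2l10 was listed at 0 in both tables. Bcl2a1a had at most 0.453 CPM in the count table but 19.1, 33.2 and 20.25 FPKM in KO and 28.6, 26.8 and 16.2 FPKM in WT libraries, so the deposited tables differ on this gene. Bcl2l2, the gene of BCL-W, had a log2 fold change of -0.50 (SE 0.39), which was -0.14 without the library labelled WT replicate 3, and Bcl2l12 one of 0.64 (SE 0.44). Bcl2a1b stood at 0.05 and Bcl2a1d at 0.24, both uncertain because these genes and Bcl2a1a are near-identical copies. Bcl2l12 was -0.05 without KO replicate 1.

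The other effector, Bax, stood at 207.5, 45.0 and 37.3 CPM in KO libraries and at 37.5, 51.5 and 34.4 CPM in WT libraries. KO replicate 1 was the highest, and the other 5 libraries covered 34.4 to 51.5 CPM. For Bax the log2 fold change of 1.24 (SE 0.61) was 0.00 without KO replicate 1 and 0.39 after adjustment for GC and transcript length, and the transcript holds 63.5% GC. Bok, the other listed effector, fell below the filter.

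Bbc3, which encodes the p53 target PUMA, showed the same pattern as Bax among the BH3-only genes. It stood at 24.3, 3.70 and 2.21 CPM in KO libraries and at 2.53, 3.88 and 3.803 CPM in WT libraries. Only KO replicate 1 lay outside 2.21 to 3.88 CPM, and the transcript holds 65.2% GC. For Bbc3 the log2 fold change of 1.58 (SE 0.80) was -0.20 without KO replicate 1. Pmaip1, the gene of NOXA, stood at -0.08. Bnip3 and Bnip3l, BH3-like mitophagy receptors induced by hypoxia, stood at -0.83 (SE 0.56) and -1.02 (SE 0.49), and both were highest in the library labelled WT replicate 3 at 296.5 and 229 CPM. Without that library they were -0.11 and -0.46. Bcl2l14 stood at -1.32 (SE 0.52), at 1.06 to 2.71 CPM in KO and 2.43 to 5.53 CPM in WT libraries.

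Of 21 genes of the caspase branch downstream of mitochondria, 8 were above 0, with a median of -0.12. In CPM the voltage-dependent anion channel genes Vdac1, Vdac2 and Vdac3 lay lower in each KO library than in each WT library. Vdac3 was at 47.3, 69.9 and 59.8 CPM in KO libraries and at 85.1, 101 and 84.3 CPM in WT libraries, with a log2 fold change of -0.61 (SE 0.23, edgeR adjusted p = 0.639). Vdac1 stood at -0.40 (SE 0.22) and Vdac2, which retains BAK at mitochondria, at -0.31 (SE 0.22). These were the 3 of the 21 genes without overlap in CPM, where 8.18% of all genes tested were lower in KO without overlap. In FPKM Vdac2 did overlap, with KO replicate 2 at 197.4 FPKM above the library labelled WT replicate 3 at 193.3 FPKM. Without KO replicate 1 plus the library labelled WT replicate 3, the log2 fold changes were -0.50, -0.26 and -0.26 for Vdac3, Vdac1 and Vdac2. The apoptosome gene Apaf1 stood at -0.14.

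In the death receptor branch, which feeds into Bid, 7 of 12 genes were above 0, with a median of 0.13. Fasl, the ligand of the receptor Fas, was at 11.3, 22.6 and 32.1 CPM in KO libraries and at 38.8, 42.6 and 49.98 CPM in WT libraries. Each KO library lay below each WT library. Its log2 fold change was -0.998 (SE 0.37, edgeR adjusted p = 0.637), and -0.56 without KO replicate 1 plus the library labelled WT replicate 3. Fasl is also a gene of CD8 T cells, whose marker sums were lower in the same libraries. The part of these cells in the Fasl values was not tested. The adaptor genes Tradd and Traf2 stood at 0.87 and 0.64, and at -0.04 and 0.11 without KO replicate 1. Tnfrsf10b, the mouse TRAIL receptor, stood at 0.40 and at 0.18 without KO replicate 2, and Fas itself at -0.01.

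Among 28 genes known to regulate the family, 13 were above 0, with a median of -0.02. Trib3, a pseudokinase gene induced by amino acid stress, was at 11.4, 4.53 and 12.5 CPM in KO libraries and at 24.5, 21.8 and 33.3 CPM in WT libraries, without overlap. Its log2 fold change was -1.48 (SE 0.41, edgeR adjusted p = 0.456), and DESeq2 gave an adjusted p of 0.0390. Ddit3, the gene of the stress factor CHOP that can induce Bcl2l11, stood at -0.74 (SE 0.37), and at -0.44 without KO replicate 1 plus the library labelled WT replicate 3. Foxo3, a known activator of Bcl2l11, stood at 44.9, 20.5 and 15.2 CPM in KO libraries and at 16.7, 16.4 and 20.7 CPM in WT libraries, and Foxo1 at a log2 fold change of -0.12. Pim2, a survival kinase that phosphorylates BAD, stood at -0.64 (SE 0.31), and at -1.04 without KO replicate 1. It was -0.96 without KO replicate 1 plus the library labelled WT replicate 3, where edgeR gave an adjusted p of 0.0253. Rela, a subunit of NF-κB, stood at 0.95 (SE 0.36) and at 0.34 without those libraries, with 59.4% GC.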

How the data were processed

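Stranded mRNA libraries of the 6 samples were read as 75-bp single ends and run through the VIPER pipeline, per the labels' design text. STAR 2.4.2a did the alignment, per the file headers, and the submitters' processing notes name mm9 as the genome build. Neither labels nor headers state the counting tool or its strand setting. One table deposited by the authors holds unnormalized counts by gene symbol, and a second deposited table holds FPKM values for 24917 of the symbols, normalized for length and depth, a unit read from the values since no header names it. Groups and replicate numbers were taken from sample titles. The titles and protocol name nTreg cells, the source field effector CD4 T cells. Entries with a date in place of a symbol (26, holding 0.271% of counts) stayed in the library sizes.

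The test of the counts was that of edgeR 4.0.16 under R 4.3.3 (TMM scaling, filterByExpr with a minimum count of 10, quasi-likelihood test, Benjamini-Hochberg adjustment over all genes tested). SE came from the F statistic, and CPM are TMM-scaled. Permutation tests used log2(CPM + 0.5). Alternatives used DESeq2 1.42.0 and limma 3.58.1, with limma run on counts and on log2(FPKM + 1) or log2(FPKM + 0.1), so that fold changes of low genes are understated there. At this depth 3 counts correspond to 0.108 to 0.301 CPM. No replicate pair agreed within sampling noise (chi-square per degree of freedom 20.9 or more). The pipeline was tested on simulated data. Transcript GC content and length came from GENCODE M21 for 11674 of the genes tested. Named genes were all 8 members, Srsf1, up to 4 genes per list with the smallest p, and the 3 genes most like each of the 2 members with the smallest p. Pmaip1, Apaf1, Fas, Foxo1 and Foxo3 were named outside that rule, after their values were seen, and Foxp3 and Il2ra as markers of the sorted cells. Other genes of the marker lists, among them Ikzf2, Ikzf4, Nrp1, Ctla4, Dapl1 and Cd8b1, were also named outside that rule with their values known. 1 gene that the rule names is not reported here. The members and lists were chosen with earlier results of these data known.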

Additional observations from a re-analysis of the deposited data

How the results depend on the processing

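None of the 8 members was called in any of the 21 alternatives (19 for Bmf, which low FPKM filters removed), and the log2 fold changes of Bcl2l11, Bcl2 and Bak1 kept their sign in all of them. Of 166 member values 16 changed sign. Without KO replicate 1 plus the library labelled WT replicate 3, Bcl2l1 stood at -0.12, Mcl1 at 0.13, Bmf at 0.48, Bad at -0.36, Bid at -0.17, Bcl2l12 at -0.028, Bax at -0.092, Bbc3 at -0.086 and Bnip3 at 0.25. Bid stood at -0.019 without a filter and at -0.0015 with libraries thinned to 10183626 counts. With 1 library left out, Bcl2l1 ranged from -0.044 to 0.71, Mcl1 from -0.25 to 0.054, Bad from -0.39 to 0.98, Bid from -0.10 to 0.14 and Bmf from -0.66 to 0.64. Likewise Bcl2l12 ranged from -0.046 to 0.88, Bbc3 from -0.20 to 2.00, Tradd from -0.035 to 1.20, Bcl2a1b from -0.29 to 0.21 and Bcl2a1d from -0.064 to 0.54. The cause of these changes was not tested.

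Over all genes, edgeR called 2 with all libraries and 0 to 3 with 1 left out. It called 6 without a filter, 80 without the same pair of libraries, and 14 after the correction for GC content and length, an alternative added after the data were seen. DESeq2 called 129, voom 1, and limma on unfiltered FPKM 0, with 1133 and 1153 genes at an unadjusted p under 0.05 for the pseudocounts of 1 and 0.1. Pathway genes outside the family called were 1 in DESeq2 (Trib3) and 1 without both libraries (Pim2).

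With the replicate number as a block, 1 gene was called, higher in KO, where the fit without the block called 2, both lower in KO, and Bcl2l11 stood at 1.001 (edgeR adjusted p = 0.645). The labels do not say whether libraries with the same number were paired. Deviations of such libraries from their group means correlated at -0.403, 0.119 and 0.126. With group means of only 3 libraries, these values cannot show whether pairs exist. Differences in the within-library ratios to Bcl2l11 also moved between the alternatives. The SD of these ratios was 0.901 for Bcl2, 0.687 for Mcl1 and 0.712 for Bcl2l1 in KO libraries. In WT libraries it was 0.907, 0.342 and 0.159. Bmf had 11 to 128 counts, and thinning left it at -0.30.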
